A study of Mus musculus with 18 samples.

Results

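The genes described here are the chemokines and their receptors: the protein-coding genes of the mouse mm9 annotation (GENCODE vM1) whose symbols start with Ccl, Cxcl, Ccr or Cxcr followed by a digit. There were 54 such gene models, carrying 53 symbols because Ccl25 had 2 overlapping models, of 22367 protein-coding genes on the autosomes, X and Y. By family there were 24 Ccl and 12 Cxcl ligand genes and 11 Ccr and 7 Cxcr receptor genes. A locus was the gene span plus 10 kb on either side. Many of these genes sit in tandem clusters, so the 54 loci formed 41 separate stretches and neighbouring loci shared reads.

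Binding was measured by ChIP-seq in C10 cells, a HAFTL-derived mouse pre-B line that carries an inducible C/EBPαER-GFP fusion. Adding β-Est moves the fusion into the nucleus, and the cells take on macrophage features (iMΦ at 48 hpi). All 18 libraries came from this 1 line and all of its cells carried the transgene, those at 0 hpi included. C/EBPα was profiled at 8 time points: 0 hpi, 10, 30 and 60 min and 3, 12, 24 and 48 hpi. For C/EBPβ and PU.1 there were 5, without those under 1 h. Uninduced control cells received the ethanol solvent, and the cells were grown with IL-3 and CSF-1. Each factor and time point had 1 library, so there was no replicate error and no test between time points; the 95% intervals given are exact Poisson or binomial ones and cover counting error only. Depth ranged from 5970869 to 24917810 reads in the C/EBPα libraries, from 2903580 to 5844202 in those of C/EBPβ and from 6575348 to 11349746 in those of PU.1, and all values are given per 10000000 reads. The C/EBPα libraries of 10, 30 and 60 min were sequenced on another instrument, had reads of 50 bases and were the deepest of the series, so early time cannot be told apart from sequencing run and read length. Reads had 36 bases in the other C/EBPα and the PU.1 libraries and 40 in those of C/EBPβ. The C/EBPα antibody does not separate the fusion from the endogenous protein. No expression was measured in these files, and the cell type could not be checked against expressed markers.

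Chemokines are small secreted proteins that guide leukocytes along concentration gradients, and they signal through receptors coupled to Gi proteins. Ccl ligands bind mainly Ccr receptors and Cxcl ligands bind mainly Cxcr receptors. Developing B cells depend on Cxcr4, the receptor of Cxcl12, to stay in the bone marrow, and mature B cells use Cxcr5 and Ccr7 to enter lymphoid follicles and nodes. Macrophages and monocytes secrete Ccl3, Ccl4, Ccl9 and Cxcl2 and carry Ccr1 and Ccr2. C/EBPα and C/EBPβ are leucine-zipper factors that bind the same motif, and PU.1 is an Ets factor needed by B cells and myeloid cells alike.

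The reference sequence (mm9) around the centres of 8 sites that carry the main patterns is shown first, 151 bases each, 5′ to 3′ on the strand of the named gene. A site is a run of enriched 200-bp bins, named by its distance in kb after (+) or before (−) the nearest annotated start of a chemokine or receptor gene. Capitals mark matches to 5 motifs searched on either strand: C/EBP (TTGCNNAA), PU.1 (GAGGAAGT), AP-1 (TGACTCA), RUNX (TGTGGTT) and NF-κB (GGGANTTCC). The first 4 show the sites of Ccl3 and Ccl9, the next the receptor site with the highest C/EBPα at 48 hpi, the following 2 late sites of Cxcl ligands, and the last the strongest PU.1 site before induction.
Ccl3 +9.0 kb (chr11:83453796-83453946, minus strand): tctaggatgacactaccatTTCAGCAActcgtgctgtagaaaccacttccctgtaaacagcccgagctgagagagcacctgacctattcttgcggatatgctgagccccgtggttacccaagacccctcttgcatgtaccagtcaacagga
Ccl3 promoter (chr11:83462866-83463016, minus strand): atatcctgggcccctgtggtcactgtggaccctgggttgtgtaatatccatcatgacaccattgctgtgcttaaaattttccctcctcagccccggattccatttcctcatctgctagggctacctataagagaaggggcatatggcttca
Ccl3 +8.3 kb (chr11:83454446-83454596, minus strand): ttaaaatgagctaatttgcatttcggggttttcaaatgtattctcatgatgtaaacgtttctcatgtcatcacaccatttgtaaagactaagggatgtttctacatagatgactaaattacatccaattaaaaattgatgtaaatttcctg
Ccl9 +1.3 kb (chr11:83390716-83390866, minus strand): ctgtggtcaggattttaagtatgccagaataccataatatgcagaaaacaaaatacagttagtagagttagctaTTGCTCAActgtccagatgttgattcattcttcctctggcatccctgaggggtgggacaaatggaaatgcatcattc
Ccr1 +3.7 kb (chr9:123879746-123879896, minus strand): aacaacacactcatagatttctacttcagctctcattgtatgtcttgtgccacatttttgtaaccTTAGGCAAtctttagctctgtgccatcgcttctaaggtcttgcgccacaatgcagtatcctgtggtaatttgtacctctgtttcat
Cxcl16 −8.0 kb (chr11:70281426-70281576, minus strand): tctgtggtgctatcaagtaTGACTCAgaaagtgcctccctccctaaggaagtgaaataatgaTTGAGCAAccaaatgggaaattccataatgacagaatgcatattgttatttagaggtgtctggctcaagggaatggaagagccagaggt
Cxcl1 −9.4 kb (chr5:91310816-91310966, plus strand): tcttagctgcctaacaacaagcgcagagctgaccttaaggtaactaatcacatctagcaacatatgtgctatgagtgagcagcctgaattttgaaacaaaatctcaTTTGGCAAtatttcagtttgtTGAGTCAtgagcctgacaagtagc
Cxcr4 +1.4 kb (chr1:130487436-130487586, minus strand): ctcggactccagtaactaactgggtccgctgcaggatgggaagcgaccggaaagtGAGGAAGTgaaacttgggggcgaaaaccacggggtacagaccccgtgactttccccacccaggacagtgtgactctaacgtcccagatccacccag

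In these windows the C/EBP motif was found at Ccl3 +9.0 kb (TTCAGCAA), Ccl9 +1.3 kb (TTGCTCAA), Ccr1 +3.7 kb (TTAGGCAA), Cxcl16 −8.0 kb (TTGAGCAA) and Cxcl1 −9.4 kb (TTTGGCAA). The Cxcl16 and Cxcl1 windows also held an AP-1 motif. The PU.1 motif was found at Cxcr4 +1.4 kb. The Ccl3 promoter and Ccl3 +8.3 kb windows held none of the 5 in these 151 bases, while the wider window of 400 bp used for the motif counts held a C/EBP match at Ccl3 +8.3 kb.

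C/EBPα was present at 3 of 54 loci at 0 hpi, against 10.4% of all protein-coding loci, where a locus was counted as bound when it overlapped an enriched 200-bp bin (Poisson p of at most 1e-06 against the genome and at least 4 times the mean of the surrounding 10 kb). After induction it was found at 10 loci at 10 min, 17 at 30 min, 25 at 60 min and 29 at 3 hpi, beside 20%, 28.1%, 35.1% and 37.6% of all loci. It was then found at fewer loci, 18 at 12 hpi, 14 at 24 hpi and 16 at 48 hpi, beside 31.8%, 25.1% and 23.5%. As shares of the 54 loci, the 46.3% at 60 min and 53.7% at 3 hpi lay furthest above the background, and the 18.5% at 10 min and 33.3% at 12 hpi lay close to it. With 2 kb in place of 10 kb on either side of the gene, the shares at 60 min and 3 hpi were 29.6% and 35.2%, beside 26.8% and 28.4% of all loci. Reads moved by 50 or by 100 bp gave 25 loci at 3 hpi (46.3%, beside 37.5% and 37%). They gave 25 and 24 at 60 min (46.3% and 44.4%, beside 34.6% and 34.8%), so the peak at 3 hpi over 60 min was not stable. The count at 0 hpi was not stable. It was 5 with all reads as deposited (9.26%, beside 10.6% of all loci) and 6 with bins moved by 100 bp (11.1%, beside 10.1%). When every library was thinned to the smallest of its factor, the count was 1 at 0 hpi (1.85%, beside 6.28%) and 3 at 10 min (5.56%, beside 9.1%).

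C/EBPβ was found at 1 chemokine or receptor locus at 0 hpi (4.72% of all loci), 8 at 3 hpi (15.4%), 9 at 12 hpi (11.3%), 20 at 24 hpi (19.1%) and 20 at 48 hpi (29.5%). The 1 locus at 0 hpi was that of Ccr9, which also takes in the neighbours Lztfl1 and Slc6a20a. The count at 0 hpi was 4 with reads or with bins moved by 100 bp (7.41%, beside 4.43% and 4.85%) and 3 under thinning (5.56%, beside 3.55%). The 20 loci at 24 hpi were 37% of the list. With a stricter Poisson limit of 1e-08 the counts at 12 and 24 hpi were 5 and 11 (9.26% and 20.4%, beside 6.94% and 13.5% of all loci). The C/EBPβ libraries of 12 and 24 hpi were the shallowest of the series. PU.1 was already at 29 loci at 0 hpi, or 53.7%, beside 52.8% of all loci. It was then at 33, 44, 39 and 38 loci at 3, 12, 24 and 48 hpi, beside 55.4%, 68%, 61.3% and 57.6%. The PU.1 count at 12 hpi depended on where the bins began. Bins moved by 100 bp gave 37 loci at 12 hpi (68.5%, beside 67.9%). They gave 38 at both 24 and 48 hpi (70.4%, beside 61.2% and 57.6%). With 2 kb in place of 10 kb, PU.1 was at 16, 20, 30, 27 and 24 loci at the 5 time points (29.6%, 37%, 55.6%, 50% and 44.4%), which was below the 41.1%, 44.1%, 57.8%, 50.5% and 46.1% of all loci at that width. At 48 hpi the shares of both C/EBP factors were also below those of all loci at 2 kb, with 16.7% beside 17.4% for C/EBPα and 20.4% beside 21.7% for C/EBPβ. With 10 kb on either side of the annotated start, the same length for every gene, these shares were above those of all loci. PU.1 was then at 44.4%, 50%, 68.5%, 63% and 57.4%, beside 37.5%, 41.1%, 56.2%, 48.9% and 44.2%. At 48 hpi C/EBPα was at 25.9%, beside 15.1%, and C/EBPβ at 31.5%, beside 18.6%. The PU.1 library of 12 hpi had the most enriched bins genome-wide, 77769 against 42934 at 0 hpi.

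**Figure D1:**
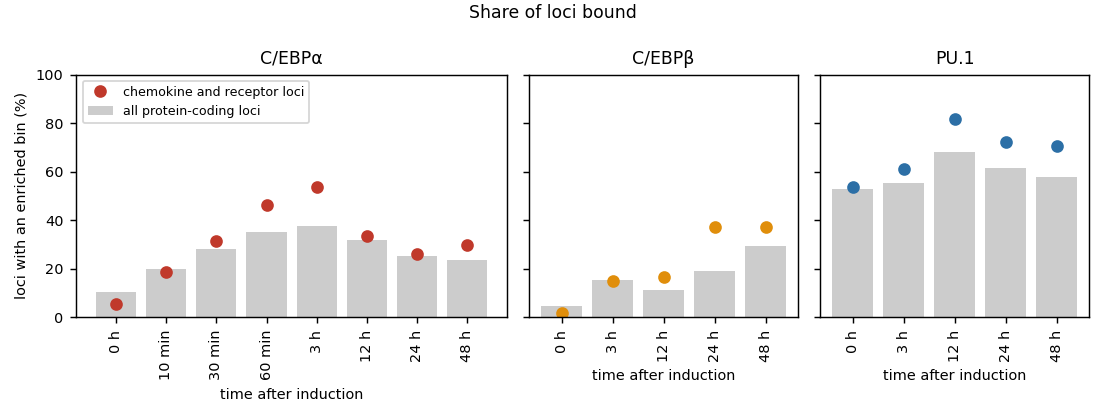
Percentage of loci with an enriched bin (y axis) in each library (x axis, time after induction), for the 54 chemokine and receptor loci (coloured points) and all 22367 protein-coding loci (grey bars), with 1 library for each point. C/EBPα points peak at 53.7% at 3 hpi over a bar of 37.6%, C/EBPβ points stand highest over their bar at 24 hpi, and PU.1 points start at the height of their bar.

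Over the whole course 34 loci were bound by C/EBPα (63%, beside 52.5% of all protein-coding loci), 26 by C/EBPβ (48.1%, beside 33.6%) and 44 by PU.1 (81.5%, beside 71.5%). PU.1 alone was found at 8 loci (14.8%, beside 20%): Ccl12, Ccl17, Ccl20, Ccl22, Cxcl10, Cxcl13, Ccr6 and Ccr8. No enriched bin was found in any library at 10 loci (18.5%, beside 25.5%). At 5 of them, Ccl19, Ccl21a, Ccl21b, Ccl21c and Ccl27b on chromosome 4, many bins held no read: Ccl19, Ccl21a and Ccl21c had no read at all in any library, 99.2% of the Ccl27b bins were empty, and 42.5% of the Ccl21b bins were empty. Among all protein-coding loci, 4.51% had more than 40% of their bins empty, a limit chosen after these values were seen. The remaining 5 unbound loci, Ccl27a, Ccl8, Cxcl14, Cxcr1 and Cxcr7, held between 37.5 and 87.1 pooled reads per kb, beside a median of 98.3 over the 54 loci. Cxcr1, a receptor for Cxcl ligands on neutrophils, stayed unbound next to Cxcr2, which was bound by all 3 factors.

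**Figure D2:**
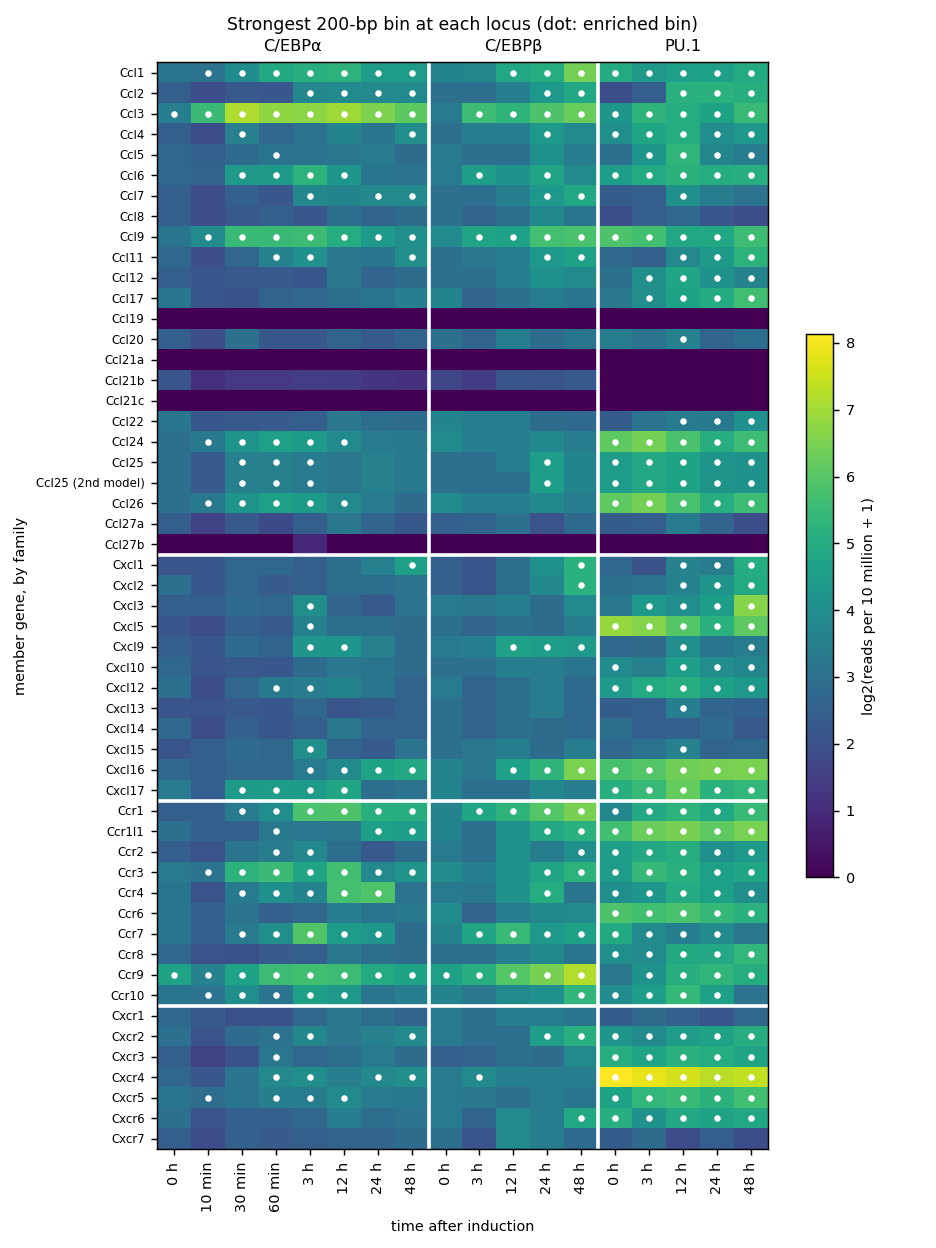
Highest count in any 200-bp bin of each locus (colour, log2 of reads per 10000000, plus 1) for 53 of the 54 gene models (rows, by family) in the 18 libraries (columns, by factor and time), with a white dot where the locus held an enriched bin. Ccl3 is the brightest C/EBPα row from 10 min on, Cxcr4 the brightest PU.1 row, and Ccl19, Ccl21a and Ccl21c have no reads.

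The enriched bins at the loci merged into 160 sites: 81 intergenic, 55 in introns, 21 in untranslated exons and 3 in coding sequence. Of these, 21 lay within 1 kb of an annotated start of the gene they were counted under, and 27 lay nearer to the start of a gene outside the families. Ligand genes held 88 sites and receptor genes 72. PU.1 was enriched at 125 sites at some time (78.1%, beside 77.2%), C/EBPα at 60 (37.5%, beside 39.1% of the 61199 sites called in the same way at all protein-coding loci, to which the other shares in this paragraph refer too) and C/EBPβ at 34 (21.2%, beside 18.2%). PU.1 was the only factor at 92 sites (57.5%, beside 57.1%), C/EBPα the only one at 22 (13.8%, beside 14.6%), and 15 sites had all 3 (9.38%, beside 8.66%), so these shares lay close to those at all loci. Each value below is the number of reads within 200 bp of a site centre per 10000000 reads in the library. Genes were described by a fixed rule on the size of their values, and Ccl17, Ccl22, Cxcl2, Cxcl3, Cxcl9, Cxcl10, Ccr4 and the promoter site of Ccl2 were added after their values were seen.

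Ccl3 (chr11:83461346-83462857, minus strand, ENSMUSG00000000982 in the annotation), which encodes a macrophage inflammatory protein that recruits monocytes through Ccr1, had the strongest C/EBPα sites of the ligands. At its +9.0 kb site, intergenic and centred at chr11:83453871, C/EBPα was 12.4 at 0 hpi (95% interval 6.19 to 22.2), 59 at 10 min (49.8 to 69.3) and 177 at 30 min (155 to 201). It then stood at 127 at 60 min, 141 at 3 hpi, 173 at 12 hpi, 128 at 24 hpi and 109 at 48 hpi (87.6 to 135), so that every library from 10 min onwards lay above the interval at 0 hpi. At 0, 3, 12, 24 and 48 hpi C/EBPβ was 9.34, 68.4, 48.2, 73.6 and 78.8, whereas PU.1 was 24.1, 54.8, 41.1, 35.2 and 59.2. The log2 ratio of 48 over 0 hpi, with a pseudocount of 1, was 3.04 for C/EBPα (2.23 to 4.19), 2.95 for C/EBPβ (1.61 to 5.02) and 1.26 for PU.1 (0.50 to 2.16).

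At the Ccl3 promoter site, centred at −84 bp, C/EBPα was 5.64 at 0 hpi, 36.1 at 10 min, 97.7 at 30 min, 90.1 at 60 min, 63.8 at 3 hpi, 85.4 at 12 hpi, 65.9 at 24 hpi and 74.1 at 48 hpi (56.4 to 95.6). C/EBPβ was highest in the last library, with 9.34, 42.8, 55.1, 64 and 118 along the 5 time points, and PU.1 was 19.9, 39.5, 49.5, 37 and 66.9. Both C/EBP factors and PU.1 were thus higher at 48 than at 0 hpi by more than counting error, with log2 ratios of 3.50, 3.53 and 1.70.

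A neighbouring Ccl3 site at +8.3 kb behaved otherwise, although its centre at chr11:83454521 lies in the next 1 kb of sequence. C/EBPα had no read there at 0 hpi, 12 at 10 min, 96.9 at 30 min (80.7 to 115), 82.4 at 60 min and 77.3 at 3 hpi (61.8 to 95.4), and then 6.7 at 12 hpi, 7.91 at 24 hpi and 6.28 at 48 hpi (2.04 to 14.7). Against the floor of 3 reads at 0 hpi, the level at 30 min was at least 28.6-fold higher. From 3 to 48 hpi the log2 ratio was −3.43 (−5.28 to −2.34), whereas at the +9.0 kb site it was −0.36 (−0.76 to 0.02). C/EBPβ at the +8.3 kb site was 56.5 at 3 hpi and between 2.33 and 17.2 in its other libraries. PU.1 stayed between 0.881 and 4.56 in all of its libraries and was not enriched. A further C/EBPα site at +2.4 kb was enriched at 60 min only, at 46.6, with 7.54 at 48 hpi. Its highest bin held 14.6 at 30 min and 10.8 at 3 hpi. These passed the Poisson limits of 8.46 and 8.99 but were not called enriched. Around the +2.4 kb site, PU.1 was enriched without a C/EBP factor at +0.9 kb in the intron (18.4 at 0 and 37.3 at 48 hpi) and at +10.2 kb (12.8 and 16.2).

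**Figure D3:**
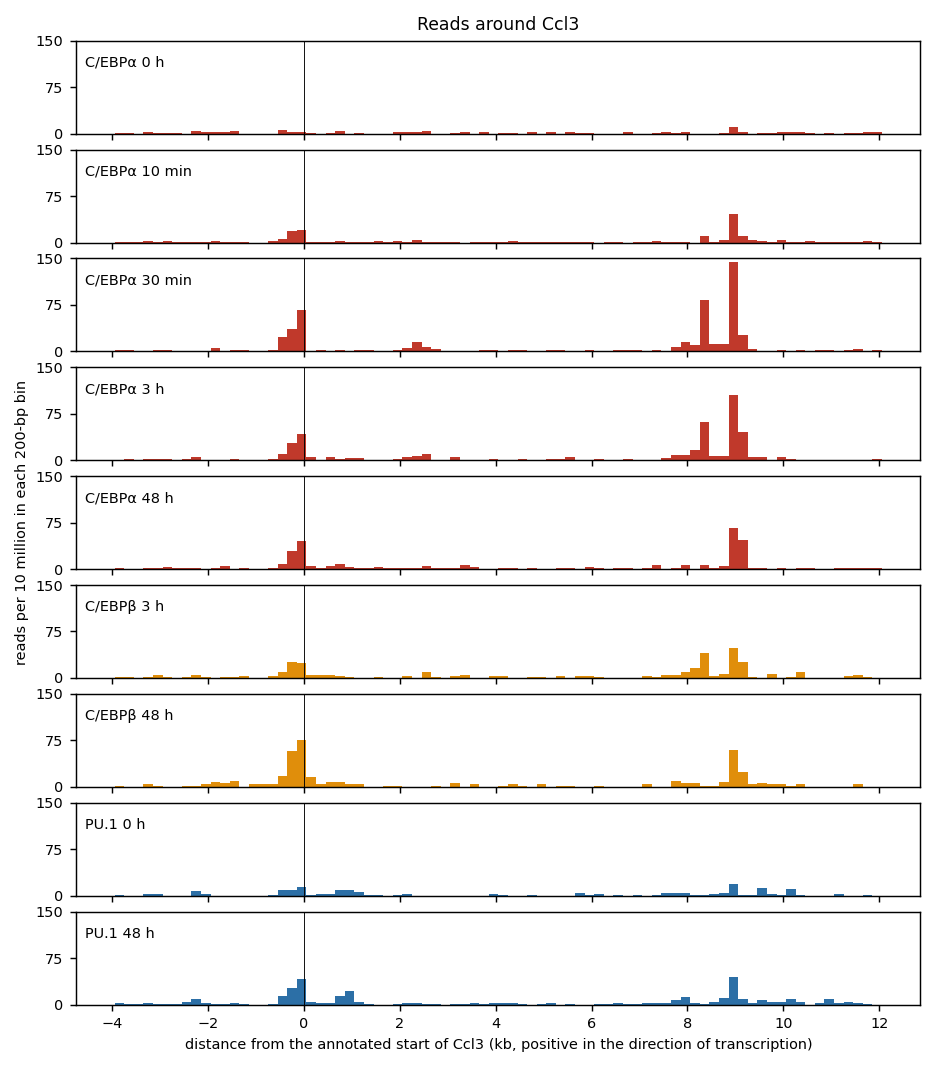
Reads per 10000000 reads in each 200-bp bin (y axis, on 1 scale in every panel) against distance from the annotated start of Ccl3 (x axis, kb, positive in the direction of transcription) in 9 of the 18 libraries. The peaks at the start and at 9.0 kb remain at 48 h, whereas the C/EBPα peak at 8.3 kb is present at 30 min and 3 h and gone at 48 h.

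Ccl9, a macrophage chemokine that also binds Ccr1, carried its main C/EBPα site in an intron at +1.3 kb (chr11:83390791). C/EBPα was 10.1 at 0 hpi, 27.7 at 10 min, 73.8 at 30 min, 77.3 at 60 min and 90.7 at 3 hpi (73.9 to 110), and then 46.9, 34.3 and 22.6 (13.4 to 35.8) at 12, 24 and 48 hpi. C/EBPβ went the other way in the late libraries, with 7, 37.6, 48.2, 89.6 and 106 (79.9 to 139) at 0, 3, 12, 24 and 48 hpi. The log2 ratio of 48 over 3 hpi was −1.96 for C/EBPα (−2.82 to −1.27), and that of 48 over 0 hpi was 3.75 for C/EBPβ (2.30 to 6.25). PU.1 lay between 17 and 32.7 there, was 18.4 at 0 hpi and 48.7 at 48 hpi near the start of the gene (+87 bp), and was 68.1 and 53.5 at a downstream site at +3.0 kb.

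Ccl2, the main ligand of Ccr2, had a site at +3.7 kb where C/EBPα was between 1.13 and 5.63 up to 60 min and 19.8, 16.7, 17.1 and 23.9 at 3, 12, 24 and 48 hpi, and where C/EBPβ went from 2.33 at 0 hpi to 51.2 at 48 hpi. PU.1 was low at the Ccl2 promoter (−0.4 kb) at 0 and 3 hpi, with 4.25 and 6.08, and stood at 51.3, 46.7 and 43 from 12 hpi on. A PU.1 site 15.3 kb after the start of Ccl11, an eosinophil attractant, had 5.67, 3.04, 43.9, 59 and 77.4 at the 5 time points, with a log2 ratio of 3.55 (2.36 to 5.68). The loci of Ccl7 and Ccl2 overlap, and both had 13.8 summed C/EBPα at 48 hpi. Ccl6 had a late PU.1 site at −7.7 kb, with 1.42 at 0 hpi and 34.4 at 48 hpi.

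Ccl1, a ligand of Ccr8, has a very long gene model in this annotation (locus of 149 kb), over which its sites were spread. At its −18.2 kb site, which lies in an intron of that model, C/EBPβ was 2.33, 3.42, 13.8, 38.4 and 108 at the 5 time points and C/EBPα 4.51 at 0 and 26.4 at 48 hpi. C/EBPα peaked earlier at the +7.9 kb site, picked after its values were seen, with 63.8 at 3 hpi and 22.6 at 48 hpi, where C/EBPβ was 9.34 at 0 and 94.6 at 48 hpi and PU.1 was never above 7.6. Further into the model, 3 PU.1 sites were lower at 48 hpi: −67.6 kb (15.6 at 0 hpi against 2.87), −72.6 kb (35.5 against 7.64) and −76.1 kb (31.2 against 4.78). Ccl24, an eosinophil attractant, had a strong PU.1 site at +4.1 kb with 119, 167, 107, 59 and 83.1, and at most 9.85 of either C/EBP factor. Elsewhere in its locus C/EBPα was enriched in the 5 libraries from 10 min to 12 hpi, with at most 23.5 in a bin, at 60 min. The Ccl17 and Ccl22 genes, which encode the ligands of Ccr4, had PU.1 sites only; at the Ccl17 sites of −7.9 kb and −5.7 kb PU.1 was 12.8 and 4.25 at 0 hpi and 66.9 and 48.7 at 48 hpi.

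The neutrophil attractants Cxcl1, Cxcl2 and Cxcl3 on chromosome 5 each had a PU.1 site with more reads at 48 than at 0 hpi. At −9.4 kb from Cxcl1, C/EBPα lay between 0.899 and 3.85 in every library up to 3 hpi and was 8.37 at 12 hpi, 14.5 at 24 hpi and 28.9 at 48 hpi (18.3 to 43.4). C/EBPβ there was 2.33, 3.42, 3.44, 16 and 31.5. PU.1 had no read at 0 and 3 hpi, and 11.2, 12.3 and 39.2 (28.1 to 53.1) thereafter; the last was at least 9.21-fold above the floor of 3 reads at 0 hpi. At −2.2 kb from Cxcl3 PU.1 was 12.8, 22.8, 25.2, 30.8 and 121, so the library of 48 hpi stood apart from the 4 before it. Cxcl2 had PU.1 at −5.0 kb (5.67 at 0 and 45.9 at 48 hpi) and C/EBPβ at −6.2 kb (4.67 and 39.4).

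Cxcl16, a membrane-bound ligand of Cxcr6 made by macrophages, had a late site at −8.0 kb (chr11:70281501), between it and Zmynd15. C/EBPβ was 2.33, 8.56, 27.6, 44.8 and 128 (98.8 to 163) at the 5 time points and PU.1 was 4.25, 10.6, 70, 47.6 and 65.9, with C/EBPα at 5.64 at 0 and 33.9 at 48 hpi. Another Cxcl16 site at +13.1 kb had PU.1 at all times, between 90.8 at 0 hpi and 165 at 24 hpi, and little C/EBP. The strongest site counted under Cxcl5 lay closer to the start of Pf4, the platelet chemokine that the symbol rule leaves out: its PU.1 level was 221, 172, 113, 64.3 and 125. Cxcl9, an interferon-induced ligand of Cxcr3, had C/EBPβ at +9.3 kb with 7, 18.8, 41.3, 32 and 37.4, while Cxcl10 had PU.1 only.

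Ccr1, the receptor of Ccl3 and Ccl9, had the largest C/EBPα ratio of 48 over 0 hpi among the 21 sites compared. At its +3.7 kb intron site (chr9:123879821), C/EBPα was 1.13 at 0 hpi, 3.61 at 10 min, 16.1 at 30 min, 27.1 at 60 min, 81.8 at 3 hpi, 87.1 at 12 hpi, 59.3 at 24 hpi and 51.5 at 48 hpi (37 to 69.9). C/EBPβ was 2.33, 46.2, 48.2, 73.6 and 130 (101 to 165), and PU.1 stayed between 1.52 and 5.67 without an enriched bin. The log2 ratio of 48 over 0 hpi was 4.63 for C/EBPα (2.96 to 10.85) and 5.30 for C/EBPβ (3.27 to 11.12). The Ccr1 promoter site at −76 bp showed PU.1 ahead of C/EBPα: PU.1 was 14.2, 35, 63.5, 51.1 and 77.4, whereas C/EBPα was at 12.3 or below up to 12 hpi and 31.6 and 26.4 at 24 and 48 hpi.

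Ccr3, an eosinophil receptor, had a site at +15.9 kb with C/EBPα at 11.3 at 0 hpi, 67 at 60 min, 63.6 at 12 hpi and 23.9 at 48 hpi, and PU.1 at 21.3 at 0 and 30.6 at 48 hpi. The interval of the C/EBPα log2 ratio of 48 over 0 hpi, 1.02 (−0.09 to 2.35), included 0. Ccr2, the receptor of Ccl2, had a promoter site at −38 bp that was highest at 3 hpi for C/EBPα (25.2, against 1.13 at 0 and 6.28 at 48 hpi) and for PU.1 (19.8, against 1.42 and 0.955). C/EBPβ there had no read at 0 hpi and was 15.4, 24.1, 3.2 and 19.7 at 3, 12, 24 and 48 hpi, the last at least 2.81-fold above the floor of 3 reads at 0 hpi and the only 1 with an enriched bin. Near Ccr1l1, PU.1 stood at 86.5 at 0 hpi and 119 at 48 hpi at the −7.9 kb site.

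The next 2 receptor sites held C/EBPα in passing and were picked for it. At +8.3 kb from Ccr4, the receptor of Ccl17 and Ccl22, C/EBPα was 0 at 0 hpi, 1.61 at 10 min, 10.8 at 30 min, 16.9 at 60 min, 17.1 at 3 hpi, 63.6 at 12 hpi, 71.2 at 24 hpi (53.5 to 92.9) and 8.8 at 48 hpi (3.54 to 18.1). At +13.3 kb from Ccr7, which directs B cells and dendritic cells to lymph nodes, it was 3.38, 0.401, 13.1, 19.4, 71 (56.2 to 88.5), 25.1, 27.7 and 5.03 (1.37 to 12.9) at the same time points. Their highest values were those of 24 and 3 hpi, which the choice of sites fixes in part, and PU.1 was enriched at neither. Within the Ccr4 locus C/EBPβ was enriched at 24 hpi, with at most 32 in a bin. Within the Ccr7 locus it was enriched in each library from 3 to 48 hpi. Its highest bin there held 25.7, 44.8, 19.2 and 23.6 at 3, 12, 24 and 48 hpi.

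The Ccr9 locus needs care, since it spans 124 kb and takes in the neighbours Lztfl1 and Slc6a20a. Its strongest site, at +39.2 kb from a Ccr9 start and −58 bp from that of Lztfl1, was bound by C/EBPα in all 8 libraries, with 38.3 at 0 hpi, 79.1 at 3 hpi and 35.2 at 48 hpi. C/EBPβ was 39.7, 63.3, 99.9, 141 and 252 (210 to 300) there, the highest C/EBPβ value of the 160 sites. Of the 21 sites compared for C/EBPα it was the 1 site with a ratio of 48 over 0 hpi below 1, by a log2 of −0.12 (−0.90 to 0.64). A second site in the model, −5358 bp from the Lztfl1 start, had C/EBPα at 6.77 at 0 and 25.1 at 48 hpi, and PU.1 at 9.93 and 54.5. Close to the Ccr9 start, at +1.3 kb, PU.1 had no read at 0 hpi and 21 at 48 hpi.

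**Figure D4:**
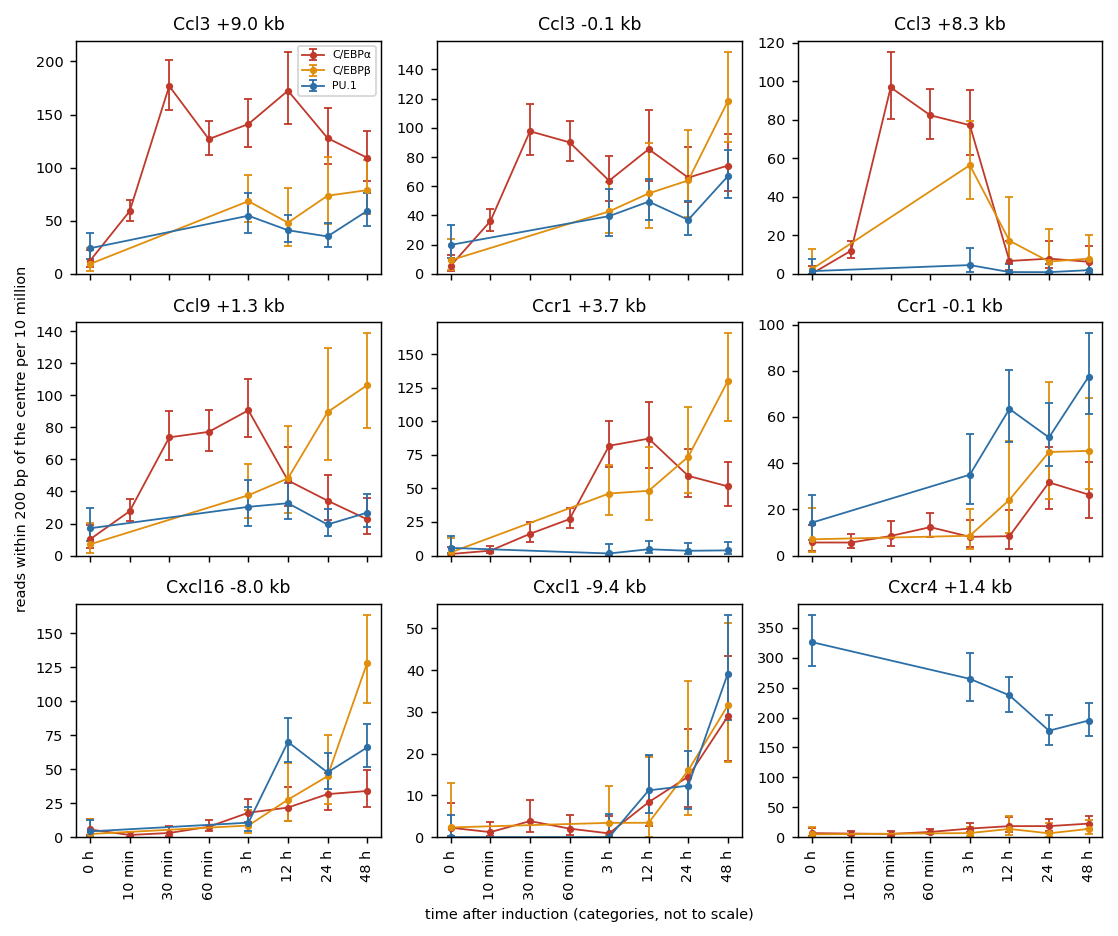
Reads within 200 bp of the centre per 10000000 reads (y axis) against time after induction (x axis, categories and not to scale) at 9 sites, for C/EBPα (red), C/EBPβ (orange) and PU.1 (blue), 1 library a point, with exact Poisson 95% intervals. C/EBPα is high by 30 min at the Ccl3 sites and late at Cxcl16 and Cxcl1, C/EBPβ ends highest at 48 h at Ccl9, Ccr1 and Cxcl16, and PU.1 is lower at 48 than at 0 h at Cxcr4.

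Cxcr4 carried the strongest PU.1 site of the families, in its intron at +1.4 kb (chr1:130487511): 326 at 0 hpi (285 to 371), 265 at 3 hpi, 237 at 12 hpi, 178 at 24 hpi and 195 at 48 hpi (169 to 224). The log2 ratio of 48 over 0 hpi was −0.74 (−1.02 to −0.46). C/EBPα was 6.77 at 0 hpi and 22.6 at 48 hpi at this site. A weaker upstream Cxcr4 site at −9.4 kb had 45.4 (31 to 64.1), 25.9, 8.4, 5.29 and 2.87 (0.591 to 8.38), a log2 ratio of −3.58 (−6.34 to −2.31) that was the lowest of all PU.1 sites compared.

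Ccr7 and Cxcr5 each held a PU.1 site that was lower at 48 hpi. At −8.1 kb from Ccr7, PU.1 was 35.5 (22.9 to 52.3), 19.8, 14.9, 8.81 and 6.69 (2.69 to 13.8). At +4.4 kb in Cxcr5, the follicle-homing receptor, it was 19.9 at 0 hpi and between 2.8 and 6.08 later. Summed over all its enriched PU.1 bins, Cxcr5 was not lower, with 112 at 0 and 116 at 48 hpi. Ccr6, a receptor of B cells and mucosal lymphocytes, had 210 and 115 summed over its enriched PU.1 bins, which was within the 2-fold limit.

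Cxcr2 and Cxcr6 had more binding at 48 hpi. Cxcr2, the neutrophil receptor of Cxcl1, Cxcl2 and Cxcl3, had an intron site at +1.6 kb where C/EBPβ was 2.33, 10.3, 13.8, 32 and 53.2 and PU.1 17, 18.2, 36.4, 39.6 and 59.2. Cxcr6, the receptor of Cxcl16, had a site at +9.1 kb where PU.1 was 1.42, 4.56, 24.3, 17.6 and 42 and C/EBPβ 2.33 at 0 and 37.4 at 48 hpi. Both sites were higher for C/EBPβ and PU.1 at 48 than at 0 hpi by more than counting error.

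Comparing 48 with 0 hpi over all sites enriched for a factor at either time, 19 of 21 C/EBPα sites were higher by more than 2-fold and 0 lower, beside 65.4% higher and 7.13% lower of such sites at all protein-coding loci. For C/EBPβ 25 of 26 were higher and 0 lower, beside 87.8% and 2.54%. Other read or bin placement and thinning gave at most 2 lower sites for C/EBPβ, and all reads as deposited gave 1 for C/EBPα. For PU.1 35 of 89 were higher and 12 lower, beside 30.3% and 16%. The median log2 ratios were 2.31, 3.25 and 0.69 for the 3 factors, against 1.58, 2.52 and 0.27 over all sites. Sites enriched only at 48 hpi must be higher there, so these counts are read against the background alone.

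Summed over the enriched bins of each locus, the same comparison gave 14 of 16 loci higher and 0 lower for C/EBPα (66.3% and 7.83% of all loci), 20 of 20 higher for C/EBPβ (92.6%, with 1.8% lower) and 15 of 40 higher and 1 lower for PU.1 (20.1% and 11.7%). With reads moved by 50 bp, 3 PU.1 loci were lower. For C/EBPβ, 2 loci were lower with reads or bins moved by 100 bp and under thinning, and for C/EBPα 1 was with bins moved. The 1 locus with lower PU.1 under the settings used throughout was Ccr7, at 29.8 reads per 10000000 at 0 hpi and 5.73 at 48 hpi. Among the loci with more PU.1 at 48 hpi were Ccl2 (4.25 and 61.2), Cxcl3 (9.93 and 118), Ccl11 (2.84 and 37.3), Cxcl1 (8.51 and 87.9), Ccl17 (18.4 and 112) and Ccr9 (14.2 and 80.3). The lowest log2 ratios were those of Ccr7 (−2.19), Ccr6 (−0.87), Cxcr4 (−0.85) and Cxcl5 (−0.82).

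For further members, PU.1 summed over the enriched bins was 19.9 at 0 and 19.1 at 48 hpi for Cxcl12, the ligand of Cxcr4, 39.7 and 44 for Cxcr3, and 19.9 and 24.8 for Ccl4, the close relative of Ccl3. For Cxcl17 it was 96.4 and 151, for Ccl5 5.67 and 9.55, and for the 2 Ccl25 models 34 and 39.2, and 24.1 and 28.7. Ccr8, the receptor of Ccl1, was just past the 2-fold limit with 38.3 and 78.3. Ccr10, a receptor of plasma cells and skin lymphocytes, had 26.9 and 15.3 for PU.1 but 9.34 and 74.9 for C/EBPβ. Ccl20 and Cxcl13, a ligand of Ccr6 and the ligand of Cxcr5, had an enriched PU.1 bin at 12 hpi only, in the PU.1 library with the most enriched bins.

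**Figure D5:**
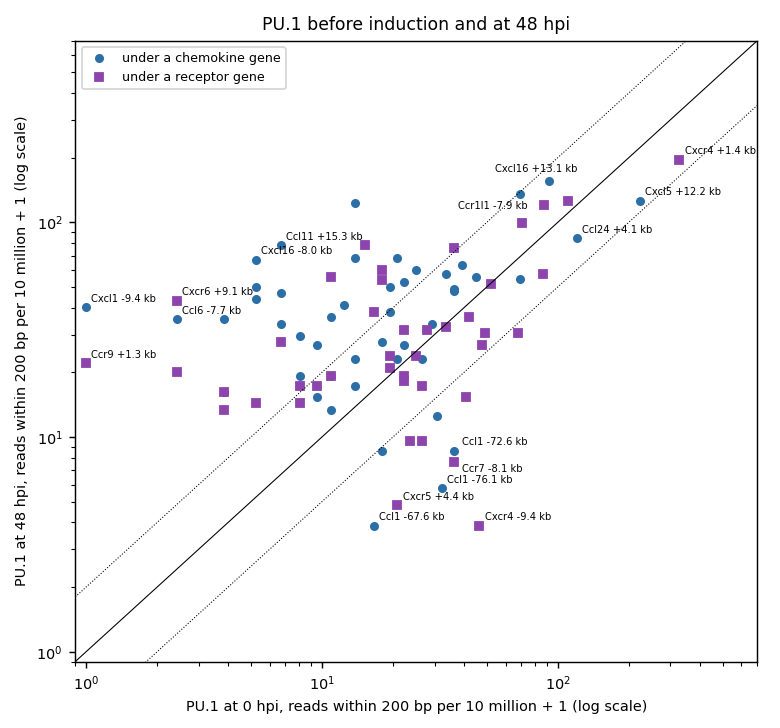
PU.1 at 48 hpi (y axis) against 0 hpi (x axis), as reads within 200 bp per 10000000 reads, plus 1, on log scales, for the 89 sites with PU.1 at either time under ligand genes (circles) or receptor genes (squares); the solid line is equality and the dotted lines 2-fold. Cxcl1 −9.4 kb, Ccl6 −7.7 kb and Cxcl16 −8.0 kb lie far above the lines, and Cxcr4 −9.4 kb and sites of Ccl1, Ccr7 and Cxcr5 below.

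PU.1 occupied 51 of the 160 sites before induction (31.9%, beside 33.2% at all loci), and 38 of the 51 were also enriched at 48 hpi (74.5%, beside 71.8%). The C/EBPα sites with prior PU.1 numbered 15 of 60 (26% of C/EBPα sites at all loci), and 33 of the 160 sites had C/EBPα at some time and PU.1 at no time (20.3% at all loci). C/EBPα was first enriched by 60 min at 11 of the 15 sites with prior PU.1 (73.3%, beside 71% at all loci) and at 26 of the 45 without it (57.8%, beside 65.1%). The median C/EBPα level at sites with prior PU.1 was 6.77 at 0 hpi, 9.23 at 10 min, 13.8 at 30 min, 15.3 at 3 hpi and 15.1 at 48 hpi, while at sites without it the medians were 3.38, 3.21, 6.92, 17.1 and 7.54. These medians thus already differed at 0 hpi, in 1 library. The lower one equalled the floor of 3 reads there (3.38), and both lay under the 10.1 needed for an enriched bin. Over C/EBPα sites at all loci the medians with prior PU.1 were 5.64 at 0 hpi, 6.02 at 10 min, 13.5 at 3 hpi and 10.1 at 48 hpi. Those without prior PU.1 were 4.51, 3.61, 13.5 and 6.28. At 12 hpi the medians with and without it were 16.7 and 10 at all loci, and 18.4 and 8.37 at the chemokine and receptor loci. The 10-min library is the deepest, so a first call at that time needed fewer reads scaled to the same depth (5.62) than at 12 hpi (13.4).

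Of the 60 C/EBPα sites, 21 were called at 48 hpi (35%, beside 23.8% of C/EBPα sites at all loci), 23 were called at 1 time point (38.3%, beside 39.6%), 11 of them at 3 hpi (18.3%, beside 12.1%), and 3 at all 8 (5%, beside 2.67%). A call at 48 hpi needed 11.3 reads per 10000000 and one at 3 hpi 8.99, so fewer calls do not by themselves mean lower levels. The 21 sites with C/EBPα at 48 hpi had C/EBPβ as well in 18 cases (85.7%, beside 70.6% at all loci) and PU.1 in 13 (61.9%, beside 57.8%), with all 3 factors at 12 (57.1%, beside 43.2%). C/EBPβ was enriched at 26 sites at 48 hpi, of which 5 never had an enriched C/EBPα bin (19.2%, beside 20%).

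By family, PU.1 was at 16 of 57 Ccl sites, 8 of 31 Cxcl sites, 18 of 55 Ccr sites and 9 of 17 Cxcr sites at 0 hpi, beside 33.2% of sites at all loci. C/EBPα was found at some time at 21, 10, 22 and 7 sites of these families, beside 39.1% of sites at all loci. Bound by C/EBPα were 13 of 24 Ccl, 8 of 12 Cxcl, 9 of 11 Ccr and 4 of 7 Cxcr loci, beside 52.5% of all protein-coding loci, and the 5 loci with more than 40% of their bins empty were all Ccl genes.

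The C/EBP motif lay in the 400 bp around 32 of the 60 C/EBPα sites (53.3%), beside 36.1% of C/EBPα sites at all loci and 11.7% of the 400-bp windows around all annotated gene starts. At the 92 sites with PU.1 alone its share was 15.2%, beside 13.8% of such sites at all loci. The PU.1 motif was at 20 of the 92 PU.1-only sites (21.7%, beside 27% at all loci and 3.74% of starts) and at 0 of the 33 sites with C/EBPα and no PU.1 (2.4% at all loci). AP-1 was at 8 of the 38 sites where PU.1 was enriched at 48 but not at 0 hpi (21.1%, beside 20% at all loci), and at 7 of the 51 with PU.1 at 0 hpi (13.7%, beside 8.17%). The NF-κB motif was at 9 of 160 sites (5.62%, beside 2.28%) and at 5 of 54 gene starts (9.26%, beside 2.16%), and the RUNX motif at 19 sites (11.9%, beside 11.2%) and 10 starts (18.5%, beside 6.17%). AP-1 was at 8 starts (14.8%, beside 4.95%), the C/EBP motif at 8 (14.8%, beside 11.7%) and the PU.1 motif at 4 (7.41%, beside 3.74%). The 2 Ccl25 models start at chr8:4325210 and chr8:4325230, so their windows overlap and a match in the shared part counts for both. A match here describes the letters of the reference and not a tested site.

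The same calls were made for 30 other genes of chemokine biology that the symbol rule leaves out: ligands and receptors with other names, G proteins, arrestins, receptor kinases and regulators of migration (31 gene models). PU.1 was at 27 of these loci at 0 hpi and 28 at 48 hpi, C/EBPα at 8 and 18, and C/EBPβ at 5 and 18, beside 52.8% and 57.6%, 10.4% and 23.5%, and 4.72% and 29.5% of all loci. The listed genes were not matched to all loci in length. Pf4 and Ppbp had the same summed PU.1 (255 at 0 and 161 at 48 hpi), as had both Ccrl1 models (21.3 and 30.6), so shared bins counted more than once. From 0 to 48 hpi, 14 of 18 loci were higher and 0 lower for C/EBPα, 17 of 18 and 0 for C/EBPβ, and 3 of 28 and 1 for PU.1, beside 66.3%, 92.6% and 20.1% of all loci higher. Cx3cr1, the fractalkine receptor of monocytes, was higher for all 3 factors, with summed C/EBPα at 15.8 at 0 and 255 at 48 hpi, C/EBPβ at 11.7 and 297, and PU.1 at 15.6 and 172. Fgr and Ccrl2 were also higher for all 3, with log2 ratios of 3.90, 5.11 and 1.56 for Fgr and 3.42, 2.65 and 1.16 for Ccrl2. Rac2, a small GTPase of leukocyte migration, was the 1 locus lower for PU.1 (401 and 159).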

How the data were processed

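ChIP-seq for C/EBPα, C/EBPβ and PU.1 was analysed in 18 libraries of C10 cells, 1 for each factor and time point, grouped by the factor and time in their labels. The authors deposited aligned read positions, which are not counts, scores or peaks: ELAND or Bowtie placed the reads on mm9, allowing no mismatch, and per the study's methods identical or non-unique reads were dropped. Identical positions still made up 2.51% of the deposited reads of C/EBPα at 3 hpi and at most 0.188% elsewhere. The aligner of each library and its version are not given in the sources used here.

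Positions were read with Python 3.11.15, NumPy 2.4.6, pandas 2.3.3 and SciPy 1.17.1. The 5′ end was moved 75 bp inward, 1 read was kept per position and strand, and reads were counted in 200-bp bins. Reads on unplaced contigs (8859 to 14580 in each PU.1 library) and 1 line without a position were left out. A bin was enriched at a Poisson p of at most 1e-06 (mappable genome of 2000000000 bp) and at least 4 times the mean of the 10 kb around it. Enriched bins at the member loci were merged over libraries into sites, and reads within 200 bp of the centre were given per 10000000 reads. Ratios took a pseudocount of 1, and a call of higher or lower needed 2-fold. Each library was tested against its own depth, and with 1 library for each condition no test between time points was made. The caller was also run on simulated reads with a uniform background, which holds no local bias and cannot replace an input control. A control library was not analysed here, so local read density stands in for input.

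Genes were described if they held one of the 12 sites with most C/EBPα at 48 hpi, the 6 with most PU.1 at 0 hpi, the 6 with the largest ratio in either direction for each factor or the strongest site of the 4 families, and Ccl3 and Ccl9, for which the study lists primers. Members and lists were chosen with earlier results of these data known. Figures were drawn with Matplotlib 3.10.9. The alternatives tried were other limits, read handling, bins, depth, locus widths, scaling, pseudocount and window. Values of 1 member are not reported here, though it is part of the counts.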

Additional observations from a re-analysis of the deposited data

How the results depend on the processing

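No log2 ratio of 2-fold or more at a named site changed sign under the alternatives run. The number of bound loci moved most with the width of a locus. With 2 kb on either side in place of 10 kb, C/EBPα was at 11, 16, 19, 11, 9 and 9 loci at 30 and 60 min and 3, 12, 24 and 48 hpi (beside 21.1%, 26.8%, 28.4%, 24.2%, 18.6% and 17.4% of all loci at that width), C/EBPβ at 5, 11 and 11 at 12, 24 and 48 hpi (7.95%, 13.7% and 21.7%), and PU.1 at 16, 20 and 24 at 0, 3 and 48 hpi (41.1%, 44.1% and 46.1%). With 50 kb, C/EBPα was at 12, 26 and 35 loci at 0 hpi, 10 min and 30 min and 35, 27 and 33 at 12, 24 and 48 hpi (21.6%, 38.1%, 49.3%, 51.4%, 44.8% and 42.8%), and C/EBPβ at 4, 22, 22, 34 and 36 at its 5 time points (10.7%, 29.8%, 23.4%, 37.2% and 51.6%). With 10 kb around the start only, C/EBPα at 10 min was at 6 loci (11.1%, beside 11.5%) and C/EBPβ at 0 hpi at 0 (2.67%). C/EBPα at 0 hpi was also below all loci there (3.7%, beside 6.2%), and every other library was above. Examples are 40.7% beside 25% for C/EBPα at 3 hpi, 27.8% beside 10.7% for C/EBPβ at 24 hpi and 57.4% beside 44.2% for PU.1 at 48 hpi. A Poisson limit of 1e-08 gave 5 and 11 loci for C/EBPβ at 12 and 24 hpi (6.94% and 13.5% of all loci). With all reads as deposited, C/EBPα was at 5 loci at 0 hpi (10.6% of all loci) and 1 site was lower at 48 hpi. Moving reads by 50 bp gave 3 loci lower for PU.1. Moving them by 100 bp gave 4 loci for C/EBPβ at 0 hpi (4.43%), with 2 sites and 2 loci lower at 48 hpi. Bins moved by 100 bp gave 6 loci for C/EBPα and 4 for C/EBPβ at 0 hpi (10.1% and 4.85%), with 1 locus lower for C/EBPα and 1 site and 2 loci lower for C/EBPβ. Thinning gave 1 and 3 loci for C/EBPα at 0 hpi and 10 min (6.28% and 9.1%) and 3 for C/EBPβ at 0 hpi (3.55%), with 1 site and 2 loci lower for C/EBPβ. The cause of these moves was not tested, apart from more or less sequence for locus width. All counts stayed within 1.5 times under 2 times the local mean (32 counts), a pseudocount of 5 (12) and scaling to reads outside enriched bins (12). The 82 values of named sites stayed within their intervals except 4 with a window of 100 bp, 3 with 500 bp and 1 with the other scaling. No paired analysis was possible because each group had 1 library.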
